A study of Mus musculus with 68 samples.

Results

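The genes described here were 10 genes of the response to low oxygen and of glycolysis. They were followed in mouse samples sorted as endothelial cells, in health and after injury of the brain or spinal cord. The 10 genes were chosen by name: Hif1a, Epas1, Hk2, Pfkfb3, Aldoa, Pgk1, Ldha, Bnip3, Egln3 and Adm. All 10 were found among the 37991 lines of the deposited RNA-seq table, whose values are CPM, read counts scaled to the same total in every library. Had a symbol stood on several lines, the line of highest mean CPM would have been used. CPM carries no correction for transcript length, so levels were compared between libraries and never between genes.

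The table holds 68 libraries in 25 groups. Of these, 52 libraries in 18 groups came from 4 injury models, each followed at an acute, a subacute and a chronic stage with its own controls: epilepsy, stroke by middle cerebral artery occlusion, traumatic brain injury (TBI), and experimental autoimmune encephalomyelitis (EAE), an immune-mediated demyelinating disease. Endothelial cells came from the brain in epilepsy, stroke and TBI, and from the spinal cord in EAE. Each group had 3 libraries, except the subacute and chronic TBI controls with 2 each, and TBI had a separate control group for every stage. The other 16 libraries were healthy: endothelial cells of heart, kidney, lung and liver, brain vascular cells and brain endothelial cells with 2 libraries each, and whole brain with 4. The brain endothelial group was sorted from the forebrain of adult male mice carrying Rosa-tdTomato and VE-Cadherin-CreERT2, a tamoxifen-inducible Cre under an endothelial promoter. To switch on the reporter, those mice received 100 ul of tamoxifen at 20 mg/ml on 3 days, from 10 days before the cells were enriched. For the other groups the labels give neither genotype, strain, age and sex nor the days behind a stage. They do not say whether libraries of a group came from separate animals, so p-values measure the spread between libraries only.

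Cells sense oxygen through the HIF transcription factors, which pair an oxygen-sensitive alpha subunit (HIF-1α from Hif1a, HIF-2α from Epas1) with the partner ARNT. When oxygen is present, prolyl hydroxylases such as the product of Egln3 mark the alpha subunit for destruction, and when oxygen falls the stabilised factor binds short hypoxia response elements. Known targets include glycolytic genes (Hk2, Pfkfb3, Aldoa, Pgk1, Ldha), the mitophagy receptor Bnip3, Egln3 itself and the vasodilator peptide gene Adm. Endothelial cells draw much of their energy from glycolysis, and Pfkfb3 activity is known to set glycolytic flux during vessel sprouting. HIF-1α is controlled largely at the protein level, which mRNA counts do not measure.

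The promoters of 6 members are shown because HIF binds a short core motif. Each line holds the 250 bases before the most upstream RefSeq transcription start listed (mouse build GRCm38.p6), written 5′ to 3′ on the gene's strand. Capitals mark the core ACGTG or GCGTG or its other-strand form CACGT or CACGC. These promoters lie at chrX:106186850-106187099 (Pgk1, plus strand), chr7:46845554-46845803 (Ldha, plus), chr7:110627407-110627656 (Adm, plus), chr12:54203875-54204124 (Egln3, minus), chr6:82774455-82774704 (Hk2, minus) and chr7:138909507-138909756 (Bnip3, minus).
Pgk1: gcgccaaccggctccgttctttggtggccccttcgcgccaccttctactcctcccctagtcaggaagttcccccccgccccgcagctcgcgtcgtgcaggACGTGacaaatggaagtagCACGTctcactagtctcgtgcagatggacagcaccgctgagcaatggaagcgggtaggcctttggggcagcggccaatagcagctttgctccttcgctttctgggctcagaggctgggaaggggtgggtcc
Ldha: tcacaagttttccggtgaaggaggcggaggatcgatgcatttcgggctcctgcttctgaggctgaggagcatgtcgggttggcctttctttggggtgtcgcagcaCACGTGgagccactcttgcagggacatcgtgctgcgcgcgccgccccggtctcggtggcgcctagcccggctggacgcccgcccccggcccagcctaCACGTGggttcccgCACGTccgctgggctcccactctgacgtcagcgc
Adm: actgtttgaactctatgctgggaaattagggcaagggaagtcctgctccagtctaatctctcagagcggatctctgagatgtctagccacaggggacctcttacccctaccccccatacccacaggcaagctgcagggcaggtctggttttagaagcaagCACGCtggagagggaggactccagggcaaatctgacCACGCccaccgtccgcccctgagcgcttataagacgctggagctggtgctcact
Egln3: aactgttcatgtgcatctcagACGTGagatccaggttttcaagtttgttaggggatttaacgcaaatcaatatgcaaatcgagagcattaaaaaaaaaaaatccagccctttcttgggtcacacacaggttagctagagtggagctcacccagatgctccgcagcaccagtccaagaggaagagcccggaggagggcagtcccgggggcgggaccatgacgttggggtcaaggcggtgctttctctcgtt
Hk2: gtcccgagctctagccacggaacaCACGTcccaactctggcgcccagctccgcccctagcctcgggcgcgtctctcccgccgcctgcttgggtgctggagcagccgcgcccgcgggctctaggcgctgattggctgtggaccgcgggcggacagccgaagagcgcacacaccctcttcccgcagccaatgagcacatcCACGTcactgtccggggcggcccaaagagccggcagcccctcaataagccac
Bnip3: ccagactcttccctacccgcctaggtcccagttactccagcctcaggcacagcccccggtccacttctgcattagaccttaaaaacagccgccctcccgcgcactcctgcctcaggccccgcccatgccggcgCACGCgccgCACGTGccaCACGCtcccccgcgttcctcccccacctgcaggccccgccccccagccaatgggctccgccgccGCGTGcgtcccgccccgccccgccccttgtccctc

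A promoter was found for 9 of the 10 members, all but Epas1. At the most upstream start listed, 8 of the 9 held a core motif, Aldoa being the exception. Aldoa has 3 listed starts and Pfkfb3 and Ldha 2 each, and their other starts are not described here. At least 1 place with a core motif was held by 38.6% of all 32851 RefSeq promoters, and 2 or more by 13.5%. Among the members, Bnip3 had 4 places, Ldha 3, and Hif1a, Hk2, Pgk1 and Adm 2 each. Overlapping matches, as in the 6-base run CACGTG, were counted as 1 place. A match describes the letters of the window and is no evidence that HIF binds there.

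Depth was 18779302 to 38758865 reads per library, so that 1 read was worth 0.0258 to 0.0533 CPM, and 15153 to 24631 genes had a read. Mitochondrial ribosomal RNA took 12.2 to 51.8% of reads and differed between some groups compared. The summed level of 15 endothelial markers was 4647 to 15068 CPM in sorted libraries and 88 to 153 CPM in whole brain, and no endothelial marker was at 0 in a sorted group. Markers of other cells were also present. Over the sorted libraries 11 fibroblast markers summed to between 4.74 and 7569 CPM, against 81.5 to 110 CPM in whole brain. The 14 mural cell markers summed to between 124 and 9277 CPM, against 200 to 251 CPM in whole brain. In chronic EAE library 3 the fibroblast sum was 7569 CPM and the endothelial sum 4647 CPM. In acute TBI library 2 the mural sum was 9277 CPM and the endothelial sum 6239 CPM. In such bulk samples fewer cells of a type and less RNA per cell cannot be told apart.

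Where a change against control passed the test, these genes were higher after injury and not lower. The test was limma on log2(CPM + 1) within each model, with Benjamini-Hochberg adjustment over all genes and a call at an adjusted p under 0.05. Genes entered it when they exceeded 1 CPM in at least 3 libraries (2 in TBI). All 10 members passed that filter in EAE, stroke and TBI, and 9 passed in epilepsy, where Egln3 did not. In the 12 comparisons with a control, between 0 and 5 members rose and none fell.

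Epilepsy gave 4 risers at the acute stage (Pfkfb3, Aldoa, Pgk1, Adm), where 11.6% of all genes tested rose and 42.5% were called in either direction. In subacute epilepsy 5 rose (Hif1a, Aldoa, Pgk1, Ldha, Adm), against 11.0% of all genes. None was called at the chronic stage, where 0.0655% of all genes were called, 3 members had an unadjusted p under 0.05 and edgeR also called 0. Without control library 2 or acute library 3 the acute count was 2, and without control 2, subacute 1 or subacute 2 the subacute count was also 2. The median log2 fold change of the members tested was 0.31 at the acute stage, 0.71 at the subacute and 0.15 at the chronic, beside -0.22, 0.07 and 0.08 for all genes. Mitochondrial rRNA took 27.2 to 31.2% of reads in epilepsy controls and 22.3 to 24.2% in acute libraries, and 4 of 9 fibroblast markers tested rose at the subacute stage. The part of these in the changes was not tested.

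In EAE, calls against control were made at the subacute and chronic stages. None was called at the acute stage (1.25% of all genes were called), although 6 members had an unadjusted p under 0.05 and edgeR called 0. Without acute library 3 the count was 2. All acute libraries lay above all control libraries for 5 members (Hif1a, Aldoa, Pgk1, Ldha, Egln3) and below for 0, while 25.0% of all genes had groups that did not overlap in either direction. At the subacute stage 5 rose (Hif1a, Hk2, Pfkfb3, Pgk1, Egln3), against 8.06% of all genes, and at the chronic stage 3 (Hk2, Pfkfb3, Egln3), against 1.88%. Leaving out libraries moved these counts to between 2 and 6 at the subacute stage and to between 0 and 3 at the chronic stage. The counts changed by over 1.5 times without control 1, 2 or 3 or chronic 2 at either stage, and without subacute 1 or 3 at the subacute stage. Median log2 fold changes of the members were 0.52, 0.7 and 0.47 from acute to chronic, beside 0.05, 0.01 and -0.04 for all genes. From the acute to the subacute stage 0 members were called (0.103% of all genes), so a later response is not shown. The sum of 17 microglia and macrophage markers was 49.97 to 67.8 CPM in EAE controls, 119 to 243 CPM at the acute stage, 188 to 231 CPM at the subacute and 79.2 to 200 CPM at the chronic stage, with no injured library in the range of controls. Of these markers 9 were tested, of which 1 rose at the acute stage, 1 at the subacute and 0 at the chronic, Trem2 being at 0 in controls. The part of such cells in the members' changes was not tested.

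In stroke, calls against control were made at the subacute stage, where 5 members rose (Hif1a, Hk2, Pgk1, Ldha, Egln3), against 3.66% of all genes. At the acute stage 0 were called (1.42% of all genes), with 5 at an unadjusted p under 0.05 and 0 by edgeR, and both quantile normalization and leaving out mitochondrial rRNA gave 2 (Hif1a, Ldha). At the chronic stage 0 were called (0.0% of all genes), with 3 at an unadjusted p under 0.05 and 0 by edgeR. Without control 2 or chronic 1 the acute count was 1, and without chronic 1 the chronic count was 2. Mitochondrial rRNA took 23.6 to 31.0% of reads in stroke controls and 26.0 to 40.4% in injured libraries, and its part in these results was not tested. Hk2 and Egln3 exceeded 1 CPM in the 3 subacute libraries alone, so that they entered the test through the group where they were high, and without any of these libraries they were not tested. The microglia and macrophage sum was 24.9 to 26.7 CPM in stroke controls and 28.8 to 45.3 CPM at the subacute stage, where 2 of 6 markers tested rose, and its part was not tested either. The subacute count ranged from 0 to 6 over left-out libraries, changing by over 1.5 times without control 1 or 3, acute 2, subacute 1, 2 or 3, or chronic 3.

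TBI gave 2 risers at the acute stage (Hif1a, Pgk1), against 3.5% of all genes. At the subacute stage 0 were called (1.36% of all genes), with 2 at an unadjusted p under 0.05 and 0 by edgeR, and at the chronic stage 0 (0.0% of all genes), with 0 at an unadjusted p under 0.05 and 0 by edgeR. The acute count was 1 without any of 11 libraries, named with Hif1a, at most 3 over left-out libraries, and 7 when the controls of the 3 TBI stages were pooled. Median log2 fold changes of the members were 0.37, 0.29 and 0.12 from acute to chronic, beside -0.03, 0.05 and 0.13 for all genes. In acute TBI 4 of 11 fibroblast markers rose, their sum going from 73.1 to 133 CPM in controls to between 161 and 416 CPM. The mural sum varied widely, at 1053, 1431 and 7925 CPM in acute controls and 5541, 9277 and 1473 CPM in acute libraries. Of 13 mural markers tested there, 0 were called. The part of fibroblast or mural RNA in the members' changes was not tested.

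**Figure D1:**
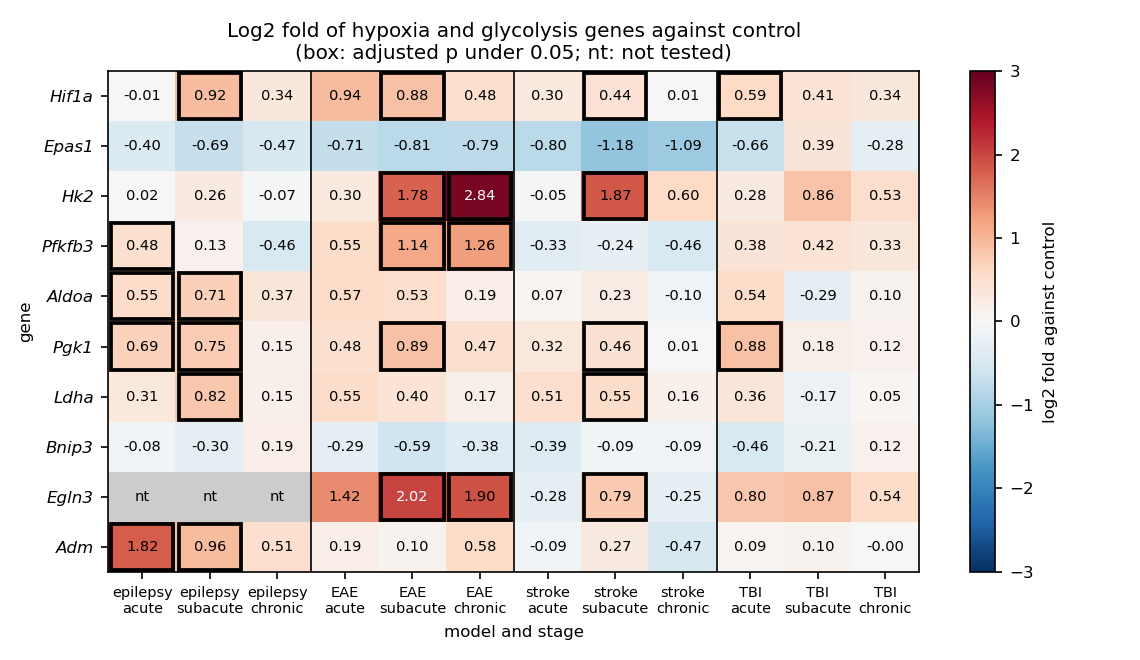
Heat map of the log2 fold change on the log2(CPM + 1) scale of the 10 members (lines) in 12 comparisons of an injury stage with its control (columns). Boxes mark an adjusted p under 0.05 and "nt" a gene not tested; every boxed value is above 0, and Epas1 and Bnip3 have no box.

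The share of all genes called higher depended on the scaling, since the median log2 fold change of all genes was not 0. In acute epilepsy 1587 genes were called higher and 4247 lower, and after quantile normalization 2471 and 2775, as the median went from -0.22 to -0.01. The corresponding splits were 1509 and 641 against 1262 and 1095 in subacute epilepsy, 1170 and 516 against 981 and 1117 in subacute EAE, and 273 and 84 against 319 and 202 in chronic EAE. In subacute stroke 493 were called higher and 565 lower, and 917 and 234 when mitochondrial rRNA was left out, as the median went from -0.14 to 0.03. None of the members called against a control changed direction under any of these scalings. Testing without the 1 CPM filter ended 12 calls against a control, with adjusted p of 0.0551 to 0.111. These were Pgk1, Ldha and Adm in subacute epilepsy, Hif1a and Hk2 in subacute EAE, Hk2, Pfkfb3 and Egln3 in chronic EAE, Hif1a, Pgk1 and Ldha in subacute stroke, and Hif1a in acute TBI.

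Of the HIF alpha subunit genes, Hif1a rose in 4 comparisons and Epas1 in none. Hif1a, the broadly expressed alpha subunit, had a log2 fold change above 0 in 11 of 12 comparisons and rose in 4. In epilepsy its control libraries read 95.6, 87.2 and 99.6 CPM, the acute ones 99.2, 81.8 and 99.8 CPM, the subacute ones 166, 192 and 179 CPM and the chronic ones 96.6, 148 and 119 CPM. The subacute libraries stood clear of both controls and acute libraries. The log2 fold change against control was -0.01 ± 0.15 (SE) at the acute stage (limma adjusted p = 0.96) and 0.92 ± 0.15 at the subacute stage (adjusted p = 0.000726). That subacute call was kept under every alternative setting and left-out library.

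In EAE, Hif1a read 157, 135 and 184 CPM in controls and 352, 352 and 223 CPM at the acute stage. All 3 acute libraries were above the controls, with a log2 fold change of 0.94 ± 0.26 that missed the threshold (limma adjusted p = 0.0965). At the subacute stage it read 272, 230 and 391 CPM, again without overlap, and rose by 0.88 ± 0.26 on the log2 scale (adjusted p = 0.0435). Without control 1, 2 or 3, subacute 1 or 3, or chronic 2, the adjusted p of that rise was 0.057 to 0.164, and by edgeR it was 0.055. Stroke gave a smaller rise at the subacute stage, from 97.7, 103 and 98.9 CPM to 144, 152 and 116 CPM, a log2 fold change of 0.44 ± 0.12 (adjusted p = 0.0423). Stroke groups did not overlap, and the call was lost without any of 7 libraries (control 1, 2 or 3, acute 2, subacute 1 or 2, chronic 3; adjusted p of 0.0546 to 0.135). In acute TBI, Hif1a went from 149, 148 and 144 CPM to 178, 233 and 264 CPM, a log2 fold change of 0.59 ± 0.16 (adjusted p = 0.0468). Here too the injured libraries were all higher, and leaving out 11 of the 16 TBI libraries in turn brought the adjusted p to between 0.0599 and 0.169, as a pseudocount of 0.1 did to 0.0503. Those were acute control 1, 2 and 3, acute 2 and 3, subacute 2, and every chronic control and chronic library.

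Epas1, the alpha subunit enriched in endothelium, had a log2 fold change below 0 in 11 of 12 comparisons, and none passed the test (lowest limma adjusted p = 0.0568). Its most negative difference was in subacute stroke, where controls read 2377, 1355 and 3089 CPM and injured libraries 970, 1327 and 658 CPM. Although the groups did not overlap, the log2 fold change of -1.18 ± 0.36 missed the threshold. In chronic stroke the libraries read 1732, 952 and 626 CPM (-1.09 ± 0.36, adjusted p = 0.24). The level of Epas1 varied widely between libraries of a group: in acute EAE it was 1014 CPM in library 1 and 3746 and 3881 CPM in libraries 2 and 3, beside 4326, 3787 and 3915 CPM in controls. Acute EAE library 1 also carried 34.4% mitochondrial rRNA, against at most 14.8% in the others. Within the 16 injury-model groups of 3 libraries, Epas1 was lowest in the library of highest mitochondrial rRNA in 11, and the part of that RNA in the Epas1 differences was not tested.

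Pgk1, which encodes the ATP-generating enzyme phosphoglycerate kinase, moved in the same direction in every comparison. Its log2 fold change was above 0 in 12 of 12 comparisons, from 0.01 to 0.89, and it rose in 5, more than any other member. In acute TBI its libraries went from 13.3, 9.87 and 10.1 CPM to 19.5, 21.1 and 22.8 CPM. The groups were well apart, and the rise of 0.88 ± 0.15 on the log2 scale (limma adjusted p = 0.00258) was kept under every alternative setting and left-out library. Subacute EAE showed a rise of like size, 0.89 ± 0.21 (adjusted p = 0.0186), from 13.3, 13.1 and 15.7 CPM to 23.5, 27.3 and 30.1 CPM. Without EAE control 1 or 2 or subacute 3 its adjusted p was 0.0726 to 0.0781.

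In epilepsy, Pgk1 read 13.02, 7.10 and 9.59 CPM in controls, 14.1, 14.6 and 20.2 CPM at the acute stage and 19.3, 16.3 and 15.3 CPM at the subacute stage. Both injured groups lay above the controls, by 0.69 ± 0.21 (limma adjusted p = 0.0159) and 0.75 ± 0.21 (adjusted p = 0.0252) on the log2 scale. The acute call was lost without control 2 or acute 3 (adjusted p of 0.058 and 0.0845), and the subacute call without control 2, subacute 1 or subacute 2 (0.0622 to 0.107). By the chronic stage Pgk1 read 9.92, 11.02 and 11.4 CPM, within the range of controls. Subacute stroke gave 14.1, 15.1 and 14.1 CPM against 9.78, 11.3 and 9.56 CPM in controls, a rise of 0.46 ± 0.13 (adjusted p = 0.0484). The stroke groups did not overlap, but leaving out control 1 or 3, acute 1 or 2, any subacute library, or chronic 2 or 3 gave an adjusted p of 0.0503 to 0.165. Reads of Pgk1 could be shared with copies of the gene: Pgk1-rs7 was listed at up to 0.279 CPM and Pgk2 at 0 in all libraries.

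Aldoa, encoding the enzyme that splits fructose bisphosphate, rose in 2 of the 12 comparisons, the acute and the subacute stage of epilepsy. Epilepsy controls read 198, 201 and 200 CPM, acute libraries 278, 290 and 308 CPM, subacute libraries 359, 312 and 309 CPM and chronic libraries 211, 296 and 275 CPM. Every injured library was above every control. In log2 terms the fold change was 0.55 ± 0.13 at the acute stage (limma adjusted p = 0.00286), 0.71 ± 0.13 at the subacute stage (adjusted p = 0.00168) and 0.37 ± 0.13 at the chronic stage (adjusted p = 0.249). The acute and subacute calls were kept under every alternative setting and left-out library. In acute TBI, Aldoa went from 201, 187 and 203 CPM to 267, 298 and 293 CPM without overlap, but 0.54 ± 0.15 missed the threshold (adjusted p = 0.0543). Aldoa shares sequence with Aldoart1, listed at 0.234 to 3.27 CPM, and overlaps Fam57b, listed at 0.908 to 22.4 CPM; how the authors' counting treated shared reads and strand is not given in the sources used here.

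Ldha, whose product turns pyruvate into lactate, rose at the subacute stage of epilepsy and of stroke. Epilepsy libraries read 335, 254 and 237 CPM in controls and 508, 443 and 497 CPM at the subacute stage, a log2 fold change of 0.82 ± 0.23 (limma adjusted p = 0.0268). Stroke libraries read 197, 255 and 174 CPM in controls, 269, 276 and 345 CPM at the acute stage and 323, 304 and 284 CPM at the subacute stage. Neither injured group of stroke overlapped the controls, and the log2 fold change was 0.51 ± 0.15 at the acute stage (adjusted p = 0.0881) and 0.55 ± 0.15 at the subacute stage (adjusted p = 0.0399). The epilepsy call was lost without control 2 or 3 or any subacute library (adjusted p of 0.0518 to 0.0922) and by edgeR (0.0552), and the stroke call without control 1 or 3, any subacute library or chronic 3 (0.0525 to 0.172). The pseudogene Ldha-ps2, which could share reads with Ldha, was listed at up to 7.99 CPM.

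**Figure D2:**
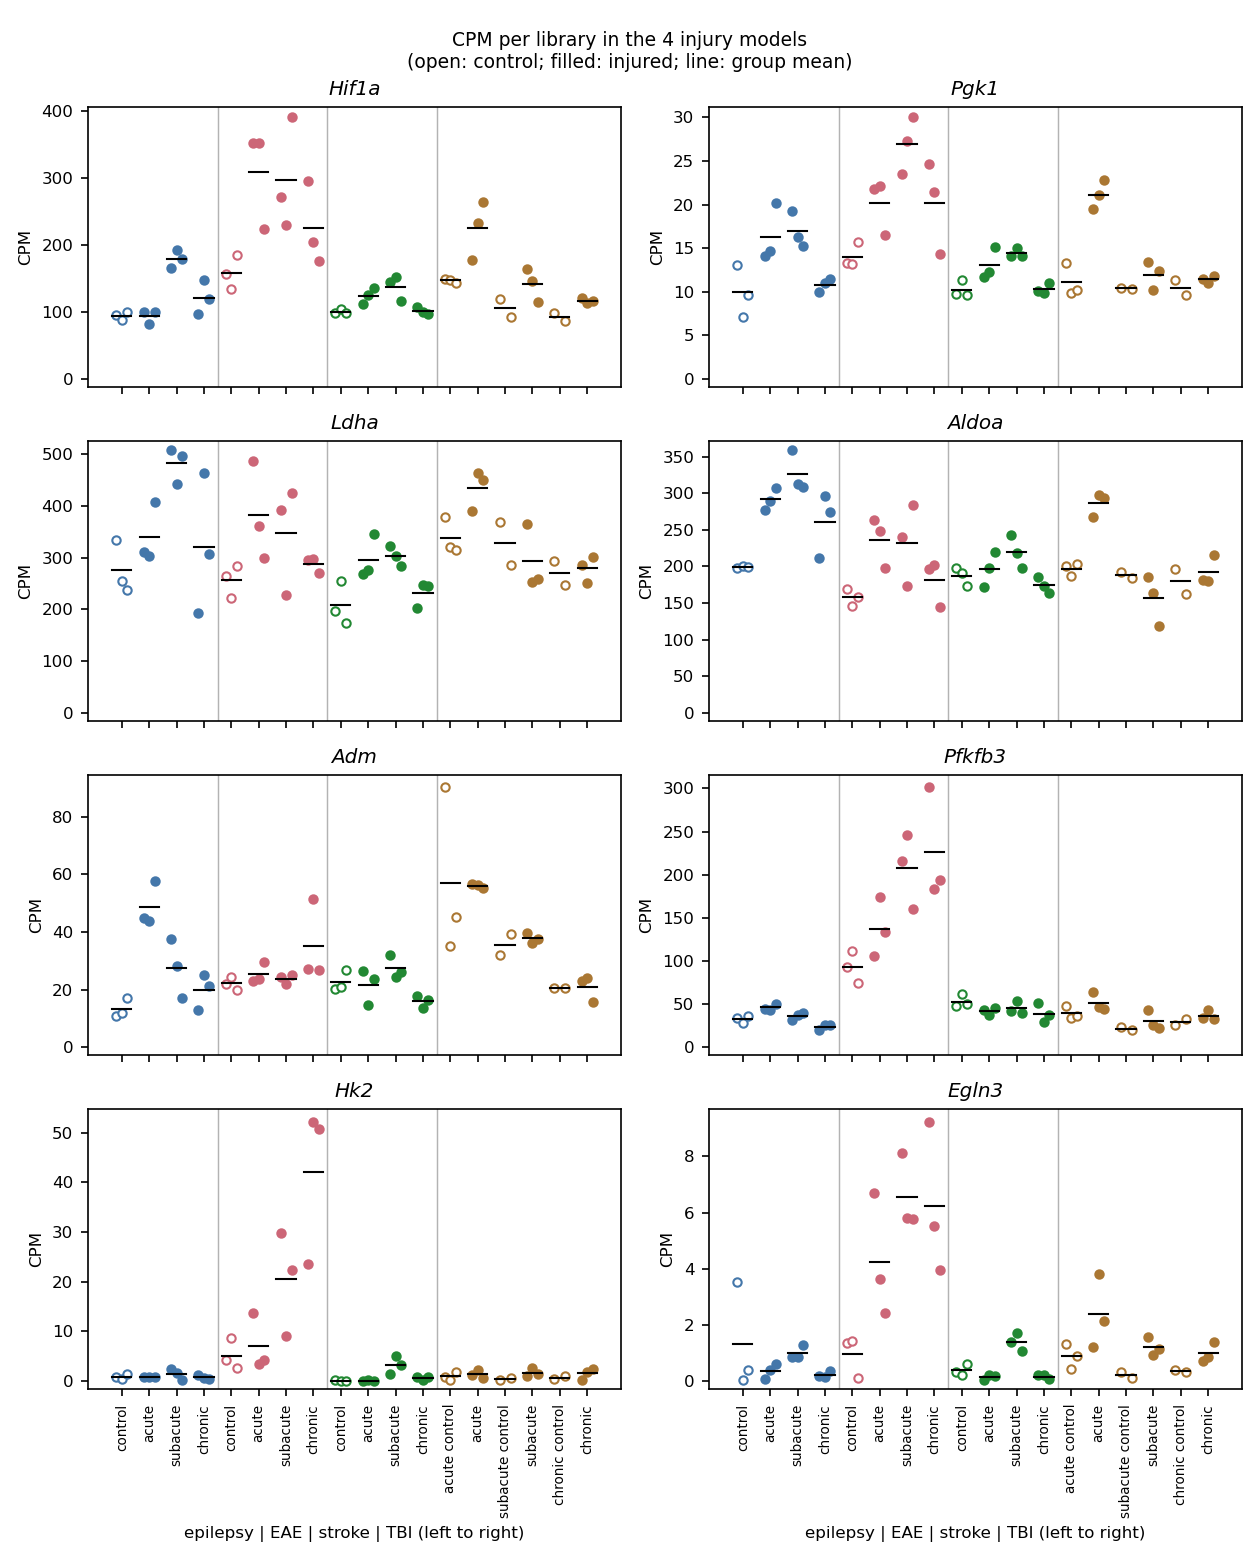
CPM of 8 members in each library of the 4 injury models, by group, with open points for controls, filled points for injured libraries and a line at the group mean. Pgk1 in acute TBI (19.5 to 22.8 CPM against 9.87 to 13.3 CPM), Adm in acute epilepsy (43.9 to 57.8 CPM against 10.9 to 17.0 CPM) and Hk2 in chronic EAE (23.5 to 52.1 CPM against 2.65 to 8.61 CPM) stand clear of their controls.

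Pfkfb3 rose in EAE and in acute epilepsy, and Hk2 in EAE and in subacute stroke. Pfkfb3 makes fructose 2,6-bisphosphate, the activator of phosphofructokinase, and Hk2 encodes an inducible hexokinase that commits glucose to the pathway. For Pfkfb3, EAE controls read 93.2, 111 and 74.6 CPM, acute libraries 105, 174 and 134 CPM, subacute libraries 216, 246 and 160 CPM and chronic libraries 301, 184 and 193 CPM. Subacute and chronic libraries were all above the controls, with a log2 fold change of 1.14 ± 0.25 at the subacute stage (limma adjusted p = 0.0124) and of 1.26 ± 0.25 at the chronic stage (adjusted p = 0.022). The subacute call was lost without control 3 (adjusted p = 0.0635), and the chronic call without control 1, 2 or 3 (0.0535 to 0.117).

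In acute epilepsy Pfkfb3 rose from 34.2, 28.0 and 36.0 CPM to 44.6, 43.0 and 50.1 CPM, by 0.48 ± 0.15 on the log2 scale (limma adjusted p = 0.0202). The groups did not overlap, and the call was lost without control 2 (adjusted p = 0.0666) or acute 3 (0.0782). In stroke the differences were below 0 at all stages, from -0.46 to -0.24 on the log2 scale, and none passed the test. Acute stroke libraries read 43.0, 36.8 and 45.1 CPM against 47.1, 61.0 and 50.2 CPM in controls.

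Hk2 was scarce in most brain groups and higher in EAE. EAE controls read 4.23, 8.61 and 2.65 CPM, acute libraries 13.8, 3.49 and 4.21 CPM, subacute libraries 29.9, 9.17 and 22.4 CPM and chronic libraries 23.5, 52.1 and 50.8 CPM. Subacute and chronic groups did not overlap the controls, although subacute library 2 was close to control library 2. The log2 fold change was 1.78 ± 0.52 at the subacute stage (limma adjusted p = 0.0446) and 2.84 ± 0.52 at the chronic stage (adjusted p = 0.0155). The subacute call was lost without control 1, 2 or 3, subacute 1 or 3, or chronic 2 or 3 (adjusted p of 0.0519 to 0.164), and the chronic call without control 1 or 3 or chronic 2 or 3 (0.0609 to 0.0878). The subacute call was also lost by edgeR (0.0619), without the reads of mitochondrial rRNA (0.0501) and after quantile normalization (0.0671).

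In stroke, Hk2 was near its limit of detection outside the subacute stage. Controls held 5, 2 and 0 reads, acute libraries 0, 4 and 0, subacute libraries 50, 194 and 92, and chronic libraries 28, 7 and 29. On the CPM scale the subacute libraries read 1.46, 5.005 and 3.21 CPM, above all others. The log2 fold change at the subacute stage was 1.87 ± 0.28 (limma adjusted p = 0.0012), on the log2(CPM + 1) scale, which understates changes of low genes. With a pseudocount of 0.1 it was 4.13 (adjusted p = 0.00273), beside 3.08 for Hk2 in chronic EAE at that pseudocount (0.0155), and by edgeR 5.35 (0.00165). Since Hk2 passed the filter through the subacute libraries alone, the fit without a filter, in which it is tested whatever its level, bears on this call, and there the adjusted p was 0.00696.

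Fibroblast markers were read beside Hk2. The summed level of the 11 fibroblast markers was 59.1, 40.0 and 53.9 CPM in stroke controls and 451, 875 and 1219 CPM at the subacute stage, where 8 of the 9 markers tested rose. In EAE the sum was 637, 1014 and 347.7 CPM in controls, 2435, 362 and 389.9 CPM at the acute stage, 3567, 727.3 and 3872 CPM at the subacute stage and 1397, 3263 and 7569 CPM at the chronic stage. Of the 11 markers tested in EAE, 0 rose at the acute stage, 1 at the subacute and 1 at the chronic. Fibroblast markers also rose in subacute epilepsy (4 of 9 tested) and acute TBI (4 of 11), where Hk2 was not called. Their sums there were 103 to 152 CPM and 161 to 416 CPM, below those of subacute stroke and chronic EAE. The library of lowest fibroblast sum had the lowest Hk2 in 4 of 4 EAE groups and in 3 of 4 stroke groups. The library of highest sum had the highest Hk2 in 2 of 4 EAE groups and in 3 of 4 stroke groups. In acute stroke Hk2 had no read in libraries 1 and 3, and this tie was counted as a match of the lowest. Stroke control and acute libraries held few Hk2 reads or none, so matches there rest on few reads. In groups of 3 libraries such matches are common by chance. In epilepsy the lowest matched in 1 of 4 groups and the highest in 2, and in TBI in 3 and 2 of 4 groups of 3 libraries. Among the other members the library of lowest sum was lowest in 0 to 2 of 4 EAE groups, and in 3 of 4 stroke groups for Pgk1 and 0 to 2 for the rest. The library of highest sum was highest in 1 to 2 EAE groups and 0 to 1 stroke groups. In chronic EAE 6 of 13 mural markers tested fell, from summed levels of 4648 to 5346 CPM to 1964 to 2178 CPM. The part of fibroblast or mural RNA in the differences of Hk2 and the other members was not tested.

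**Figure D3:**
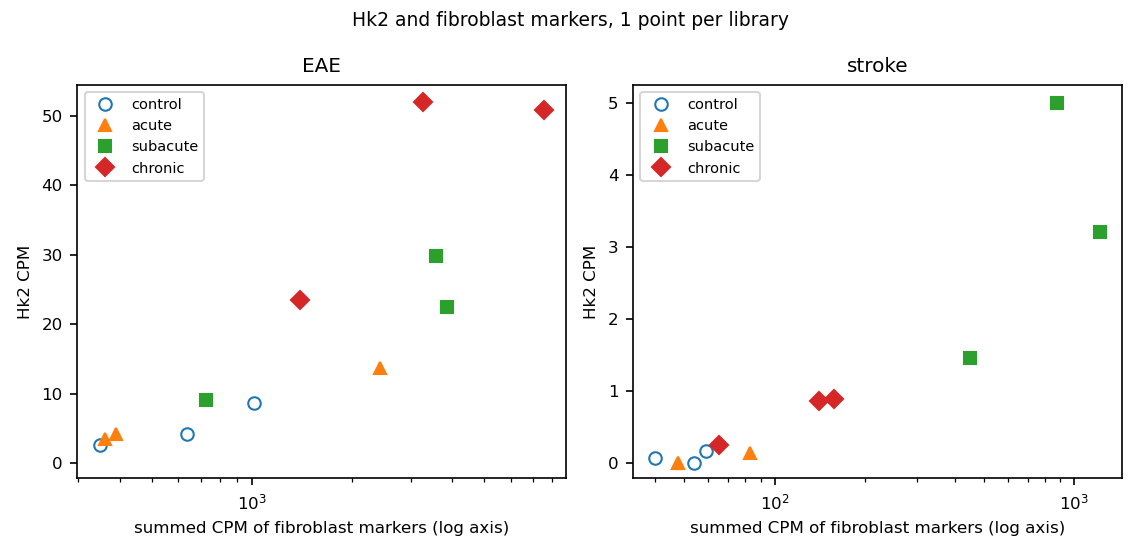
Hk2 (CPM) against the summed CPM of 11 fibroblast markers (log axis) in each EAE and stroke library. In subacute stroke both are above their control values (Hk2 1.46 to 5.005 CPM and markers 451 to 1219 CPM), and the 3 chronic EAE libraries have the highest mean Hk2 of the EAE groups at marker sums of 1397 to 7569 CPM.

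Egln3 and Bnip3, both known HIF targets, differed in response. Egln3, the prolyl hydroxylase of the feedback loop, rose in subacute and chronic EAE and in subacute stroke, 3 of the 9 comparisons in which it was tested. EAE controls read 1.35, 1.44 and 0.112 CPM, acute libraries 6.71, 3.63 and 2.44 CPM, subacute libraries 8.12, 5.81 and 5.79 CPM and chronic libraries 9.21, 5.51 and 3.96 CPM. No injured library of EAE overlapped the controls. The log2 fold change was 1.42 ± 0.37 at the acute stage (limma adjusted p = 0.0869), 2.02 ± 0.37 at the subacute stage (adjusted p = 0.00546) and 1.90 ± 0.37 at the chronic stage (adjusted p = 0.022). The subacute call was kept under every alternative setting and left-out library, and the chronic call was lost without control 1, 2 or 3 or chronic 2 (adjusted p of 0.0515 to 0.108).

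In stroke Egln3 held 9, 6 and 18 reads in controls, 1, 6 and 6 at the acute stage, 48, 66 and 31 at the subacute stage and 7, 6 and 2 at the chronic stage. Only the subacute libraries exceeded 1 CPM, at 1.40, 1.70 and 1.08 CPM. The rise against control was 0.79 ± 0.20 on the log2 scale (limma adjusted p = 0.029). It was lost without control 1 or 2 (adjusted p of 0.104 and 0.0675) and with a pseudocount of 0.1 (0.0858), and without the filter, which Egln3 passed through the subacute libraries alone, the adjusted p was 0.0113. In epilepsy Egln3 was too low to test, at 0.039 to 3.53 CPM in controls and 0.08 to 1.27 CPM in injured libraries.

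Bnip3, a mitophagy receptor of the outer mitochondrial membrane, had a log2 fold change below 0 in 10 of 12 comparisons, and none passed the test (lowest limma adjusted p = 0.139). In acute stroke its libraries read 48.1, 40.0 and 45.8 CPM against 56.4, 68.2 and 52.1 CPM in controls, a log2 fold change of -0.39 ± 0.14. In acute TBI they read 19.2, 32.5 and 22.9 CPM against 34.3, 33.0 and 34.2 CPM (-0.46 ± 0.19, adjusted p = 0.196). Both pairs of groups were apart, yet neither difference reached the threshold.

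Adm, the gene of the vasodilator peptide adrenomedullin, rose at the acute and subacute stages of epilepsy. Controls read 10.9, 12.0 and 17.0 CPM, acute libraries 44.7, 43.9 and 57.8 CPM, subacute libraries 37.6, 28.2 and 17.0 CPM and chronic libraries 12.99, 24.9 and 21.3 CPM. The acute libraries stood far above the controls, and subacute library 3 lay just above the highest control. The log2 fold change was 1.82 ± 0.27 at the acute stage (limma adjusted p = 8.25e-05) and 0.96 ± 0.27 at the subacute stage (adjusted p = 0.0257). The acute call was kept under every alternative setting and left-out library, and the subacute call was lost without control 1 or 2 or subacute 1 or 2 (adjusted p of 0.0588 to 0.135). In acute TBI Adm read 90.5, 35.3 and 45.1 CPM in controls and 56.7, 56.4 and 55.2 CPM in injured libraries, a log2 fold change of 0.09 ± 0.25 (adjusted p = 0.884). Neutrophil markers moved beside Adm in acute epilepsy, where 4 of the 5 tested rose and the sum over 8 markers was 13.1 to 69.3 CPM against 1.13 to 9.56 CPM in controls. Of 15 endothelial markers 6 rose and 7 fell there, and the part of these shifts in the change of Adm was not tested.

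Adrenomedullin acts through the receptor Calcrl paired with a Ramp protein, a small list of 5 genes of which 3 were tested in epilepsy. At the acute stage 1 rose and 2 fell, where 42.5% of all genes were called. Ramp3 rose from 6.47 to 14.1 CPM in controls to 87.2 to 144 CPM, by 3.25 ± 0.23 on the log2 scale (limma adjusted p = 1.23e-07). Calcrl, the ligand-binding subunit, fell from 123 to 220 CPM in controls to 38.4 to 40.0 CPM, by 2.11 on the log2 scale (SE 0.17, adjusted p = 3.85e-07), and Ramp2 fell by 1.08 (SE 0.19, adjusted p = 0.000336). In subacute epilepsy Ramp3 rose by 1.23 ± 0.23 (adjusted p = 0.00214), while Calcrl read 193 to 252 CPM, overlapping the controls. In subacute EAE Calcrl rose by 0.95 ± 0.16 (adjusted p = 0.00272).

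Stages of a model were also compared with each other. From the acute to the subacute stage of epilepsy, where 49.7% of all genes were called, Hif1a rose by 0.93 ± 0.15 (limma adjusted p = 8.84e-05) and Adm fell by 0.86 (SE 0.27, adjusted p = 0.0157). The median of all genes in that comparison was 0.33 and became 0 after quantile normalization, with 5209 genes higher and 1624 lower before it and 3211 and 2991 after it. Hif1a kept its rise under every alternative setting and left-out library, and the fall of Adm was lost without acute 3 or subacute 3 (adjusted p of 0.0662 and 0.0938) and without the filter (0.0574). From the subacute to the chronic stage of epilepsy (4.95% of all genes called) Hif1a fell by 0.58 (SE 0.15, adjusted p = 0.031) and Pfkfb3 by 0.59 (SE 0.15, adjusted p = 0.0384). Subacute Pfkfb3 libraries read 30.8, 37.4 and 39.6 CPM and chronic ones 19.7, 25.8 and 25.4 CPM, with no overlap. The fall of Hif1a was lost without any subacute library or chronic 1 or 3 (adjusted p of 0.0692 to 0.163), by edgeR (0.054) and without the filter (0.0801), and that of Pfkfb3 without acute 1 or 2, subacute 2 or 3 or any chronic library (0.0565 to 0.187) and without the filter (0.0685).

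In stroke, Hk2 and Egln3 were called from the acute to the subacute and from the subacute to the chronic stage, having entered the test through the subacute libraries alone. From acute to subacute (4.22% of all genes called) Hk2 rose by 1.92 ± 0.28 (limma adjusted p = 0.00109) and Egln3 by 1.07 ± 0.20 (adjusted p = 0.00582). From subacute to chronic (2.66% called) Hk2 fell by 1.27 (SE 0.28, adjusted p = 0.0255) and Egln3 by 1.04 (SE 0.20, adjusted p = 0.00924). The fall of Hk2 was lost without chronic 2 or 3 (adjusted p of 0.12 and 0.0541) and that of Egln3 without chronic 3 (0.0511). The fall of Hk2 was also lost with a pseudocount of 0.1 (0.152), by edgeR (0.1) and without the filter (0.0548). In that unfiltered fit the rises from the acute stage had an adjusted p of 0.00661 for Hk2 and 0.00329 for Egln3, and the fall of Egln3 0.00343. Between the stages of EAE 0 members were called: 0.103% of all genes were called from acute to subacute, with 2 members at an unadjusted p under 0.05, and 0.627% from subacute to chronic, with 0 members. By edgeR both EAE counts were 0, and without acute library 1 the count from acute to subacute was 1. TBI stages were not compared with each other, since each had its own controls.

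The size of the change itself differed between models for 3 members at each stage, by an F test over the 4 changes against control in a fit of all 52 libraries. At the acute stage, where 32.3% of all genes differed, these were Adm (F = 11.45, limma adjusted p = 0.000178), Egln3 (F = 7.18, adjusted p = 0.00343) and Hif1a (F = 4.85, adjusted p = 0.022). The change of Adm in epilepsy exceeded the mean change of the other 3 models by 1.75 ± 0.30 (adjusted p = 1.35e-05), and those of Hif1a and Egln3 in epilepsy differed from it by -0.62 ± 0.21 and -1.13 ± 0.39 on the log2 scale. By that contrast 34.7% of all genes were called. In EAE the changes of Hif1a and Egln3 exceeded the mean of the others by 0.64 ± 0.21 and 1.41 ± 0.39 (13.8% of all genes called). The F of Hif1a was lost without epilepsy acute 2, EAE control 2, or EAE acute 1 or 2 (adjusted p of 0.0534 to 0.0676), and with edgeR (0.211). Egln3 was too low to test in the epilepsy fit and exceeded 1 CPM in stroke in subacute libraries alone. Its changes in those models, which enter the F at every stage, therefore rest on low values.

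At the subacute stage 7.61% of all genes differed between models, among them Aldoa (F = 7.17, limma adjusted p = 0.0163), Pfkfb3 (F = 7.13, adjusted p = 0.0166) and Egln3 (F = 5.67, adjusted p = 0.0385). Changes in EAE exceeded the mean of the others for Pfkfb3 by 1.04 ± 0.26 and for Egln3 by 1.44 ± 0.39 (4.27% of all genes called). The change of Aldoa in TBI differed from that mean by -0.78 ± 0.19 (2.67% called), its libraries reading 186, 164 and 119 CPM against 193 and 185 CPM in controls. The F of Pfkfb3 was lost without EAE control 3 (adjusted p = 0.0647), that of Aldoa without either subacute TBI control or TBI subacute 3 (0.0531 to 0.073), and that of Egln3 without any of 8 libraries (0.0537 to 0.143). Those 8 were epilepsy control 1, epilepsy subacute 1 and 2, EAE control 3, EAE subacute 1 and 3, and both subacute TBI controls. With a pseudocount of 0.1 the F of Egln3 was 1.94 (adjusted p = 0.32), and it was also lost by edgeR (0.113), with mitochondrial rRNA left out (0.0766) and without the filter (0.0781).

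At the chronic stage 2.4% of all genes differed between models, and 3 members were among them. Pfkfb3 (F = 13.81, limma adjusted p = 0.00127) and Egln3 (F = 10.92, adjusted p = 0.00514) kept this result under every alternative setting and left-out library. Hk2 (F = 8.87, adjusted p = 0.0148) lost it without EAE control 3 or EAE chronic 2 or 3 (adjusted p of 0.0599 to 0.0927), with a pseudocount of 0.1 (0.218) and with edgeR (0.236). In EAE the changes exceeded the mean of the other models by 2.49 ± 0.50 for Hk2, 1.45 ± 0.26 for Pfkfb3 and 2.01 ± 0.39 for Egln3 (4.57% of all genes called). EAE was also the model of spinal cord cells, so that model and tissue cannot be told apart.

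Other genes of the same pathways were counted in the same way. Of 18 other glycolytic enzyme genes, 16 were tested in epilepsy, of which 4 rose and 4 fell at the acute stage and 7 rose and 0 fell at the subacute stage. Of all genes 11.6% rose and 42.5% were called at the acute stage, and 11.0% rose at the subacute stage. At the acute stage Pfkp, the platelet-type phosphofructokinase, rose by 1.22 ± 0.21 (limma adjusted p = 0.000325) and Gapdh by 0.91 ± 0.19 (adjusted p = 0.00112), while Pfkm, the muscle-type enzyme, fell by 0.84 (SE 0.16, adjusted p = 0.00073). Subacute libraries gave rises of Pkm2 (pyruvate kinase) by 0.99 ± 0.16 (adjusted p = 0.000902), of Gpi1 by 0.49 ± 0.12 and of Pgam1 by 0.84 ± 0.22. In subacute EAE 2 of 15 tested rose, Pkm2 and Ldhb (8.06% of all genes), and in chronic EAE 1, Eno2 (1.88%). Acute TBI gave 1 of 17 (3.5% of all genes), Pfkp, at 1.13 ± 0.17 (adjusted p = 0.00133), and none of 15 was called at any stage of stroke.

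Of 7 genes of glucose entry and pyruvate fate, 3 rose and 2 fell in acute epilepsy, where 42.5% of all genes were called. In subacute epilepsy and subacute EAE 1 rose, in acute TBI 1 fell, and in the 8 other comparisons with a control 0 were called. Slc2a1, the glucose transporter of the blood-brain barrier, rose from 4924 to 8835 CPM in controls to 12072 to 14206 CPM, by 1.12 ± 0.23 on the log2 scale (limma adjusted p = 0.00128). Slc16a3, a lactate exporter, rose by 2.39 ± 0.26 (adjusted p = 5.11e-06), and Pdk2, a kinase that restrains pyruvate dehydrogenase, fell by 1.88 (SE 0.19, adjusted p = 2.92e-06).

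Of 21 other known HIF targets, 19 were tested in epilepsy, EAE and TBI and 18 in stroke. In acute epilepsy 8 rose and 2 fell, in subacute epilepsy 2 rose and 2 fell, in subacute EAE 4 rose and 2 fell, in subacute stroke 3 rose and in acute TBI 3 rose, with none falling in the last pair. The share of all genes that rose was 11.6% in acute epilepsy (42.5% called in either direction), 11.0% in subacute epilepsy, 8.06% in subacute EAE, 3.66% in subacute stroke and 3.5% in acute TBI. Angptl4, a secreted lipase inhibitor, rose in acute epilepsy by 2.41 ± 0.25 (limma adjusted p = 4.08e-06) and in subacute EAE by 1.57 ± 0.24 (adjusted p = 0.00212). Vegfa, the endothelial growth factor, rose in chronic EAE by 2.06 ± 0.40 (adjusted p = 0.019), in subacute stroke by 1.68 ± 0.29 (adjusted p = 0.00316) and in acute TBI by 1.12 ± 0.24 (adjusted p = 0.0112). The median log2 fold change of the list was 0.35 in acute epilepsy and -0.06 in subacute stroke, beside -0.22 and -0.14 for all genes.

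Of 9 HIF regulators all were tested, and in acute epilepsy 0 were called, against 42.5% of all genes. Called members of the list were 2 in subacute epilepsy, 1 in subacute EAE, 1 in chronic EAE and 2 in subacute stroke, and 0 in the other 8 comparisons with a control. In subacute epilepsy Cited2, a competitor of HIF for its coactivators, fell by 0.63 (SE 0.18, limma adjusted p = 0.0255) and the oxygen sensor Egln1 by 0.41 (SE 0.13, adjusted p = 0.0459). The ARNT homologue Arnt2 rose in subacute EAE (1.28 ± 0.37, adjusted p = 0.041), chronic EAE (1.54 ± 0.37, adjusted p = 0.0455) and subacute stroke (1.43 ± 0.31, adjusted p = 0.0149). In subacute stroke Hif1an, an asparagine hydroxylase that blocks HIF activity, fell by 0.68 (SE 0.17, adjusted p = 0.0253).

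In healthy tissues the brain endothelial sort had high Epas1 and low Pfkfb3, Hk2 and Egln3. Pfkfb3 was not called against liver, nor Hk2 against kidney. Brain vascular cells did not share the high Epas1, were also low in Pfkfb3 and Hk2, and exceeded the brain endothelial sort in Egln3. The brain endothelial group alone carries the reporter and tamoxifen preparation in its labels, so organ and preparation cannot be told apart in its comparisons. Tests here used limma over the 7 healthy groups, with all 10 members tested. Against brain endothelial cells, 5 members were called in heart (23.0% of all genes), 3 in kidney (20.0%), 4 in lung (24.5%) and 4 in liver (31.8%). Epas1 was the sole member higher in brain endothelial cells in any of the 4 comparisons. Across the 4 other organs, 5 members differed by an F test (34.1% of all genes): Hif1a, Epas1, Hk2, Pfkfb3 and Egln3, of which Hk2 was lost by edgeR (adjusted p = 0.13). Over left-out libraries these counts were 3 to 7, 2 to 5, 3 to 6, 2 to 5 and 3 to 6. The counts changed by over 1.5 times without brain endothelial 1 or heart 2 (heart), brain endothelial 2 (kidney), and heart 1 or 2 or liver 1 (organs), and for liver without brain endothelial 1 or liver 1 or 2. Brain endothelial library 1 read 66.4 CPM for Aldoa and 2.18 CPM for Pgk1, against 184 and 10.8 CPM in library 2.

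**Figure D4:**
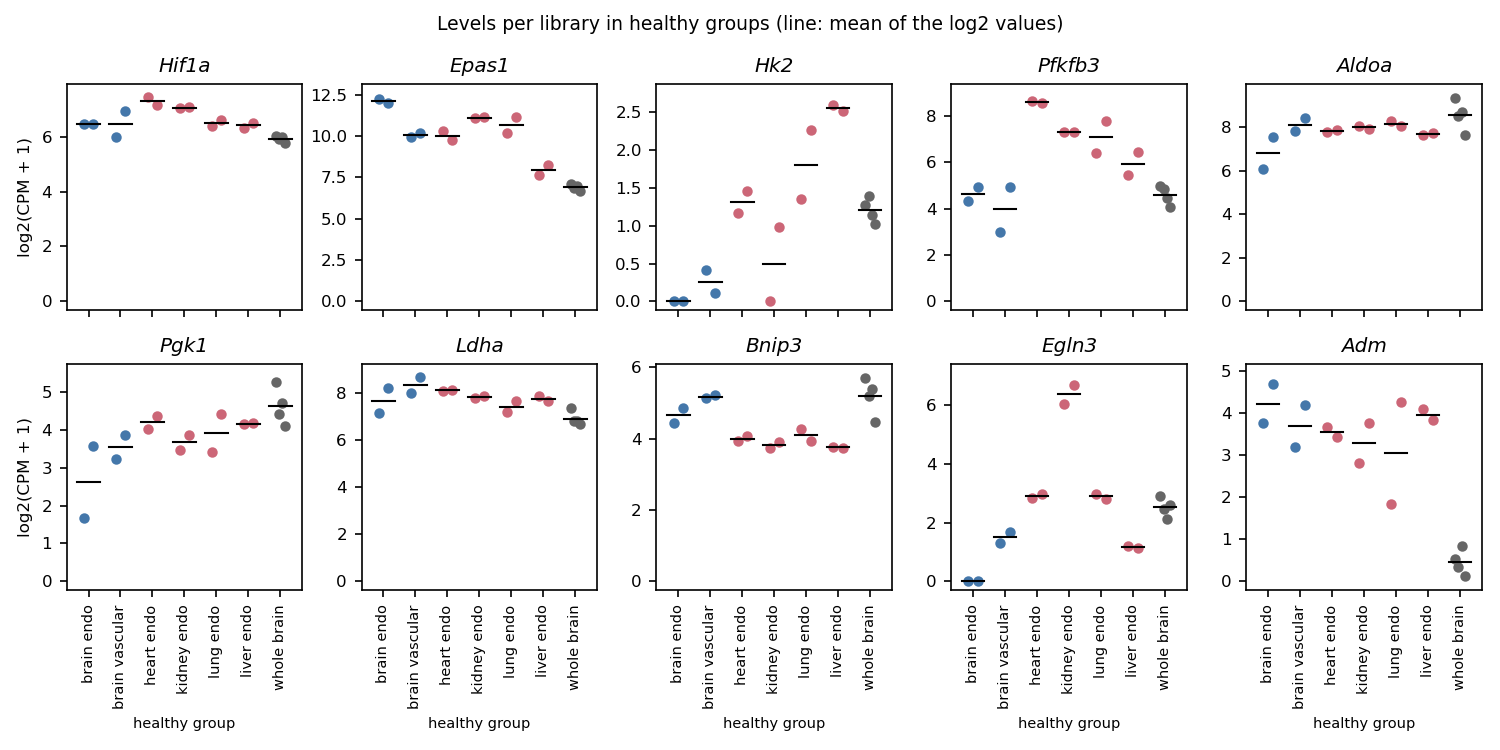
log2(CPM + 1) of the 10 members in each library of the 7 healthy groups, with 1 point per library. Epas1 is highest in brain endothelial cells (4788 and 4079 CPM) and lowest in whole brain (103 to 138 CPM), and Egln3 is highest in kidney endothelial cells (64.3 and 103 CPM).

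Epas1 read 4788 and 4079 CPM in brain endothelial cells, 2217 and 2251 CPM in kidney, 1176 and 2303 CPM in lung, 1274 and 868 CPM in heart, 991 and 1179 CPM in brain vascular cells, 203 and 299 CPM in liver and 103 to 138 CPM in whole brain. Brain endothelial cells were above every organ, by 0.98 ± 0.31 over kidney (limma adjusted p = 0.0366), 1.42 ± 0.31 over lung (adjusted p = 0.00348), 2.07 ± 0.31 over heart (adjusted p = 0.000203) and 4.16 ± 0.31 over liver (adjusted p = 1.34e-07) on the log2 scale. Of the neighbours in that order, kidney and lung did not differ beyond their spread (adjusted p = 0.46), nor did lung and heart (0.226), while heart exceeded liver (0.000182). Brain endothelial exceeded brain vascular cells by 2.03 ± 0.31 (adjusted p = 0.00157), in a comparison where 2 members and 7.77% of all genes were called. When the brain vascular libraries stood for the brain, Epas1 was lower than in kidney (-1.05, adjusted p = 0.0271) its difference from lung had the opposite sign (-0.61, adjusted p = 0.229), and that from heart was 0.04 (adjusted p = 1). The kidney call was also lost without kidney 1 or 2 or brain endothelial 1 (adjusted p of 0.129 to 0.162), after quantile normalization (0.58, adjusted p = 0.159) and without the filter (0.0775), and the lung call without lung 1 (0.0519).

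Egln3 had no read in either brain endothelial library and was highest in kidney endothelial cells. It read 64.3 and 103 CPM in kidney, 6.21 and 6.86 CPM in heart, 6.90 and 5.96 CPM in lung, 1.48 and 2.23 CPM in brain vascular cells, 1.29 and 1.19 CPM in liver and 3.36 to 6.51 CPM in whole brain. Against a floor of 3 reads per brain endothelial library (a mean of 0.15 CPM), Egln3 was at least 558-fold higher in kidney, 43.6-fold in heart, 42.9-fold in lung, 12.4-fold in brain vascular cells and 8.26-fold in liver. The limma adjusted p was 9.5e-09 for kidney, 2.15e-05 for heart, 1.83e-05 for lung, 0.0175 for brain vascular cells and 0.0167 for liver. Kidney exceeded lung by 3.47 ± 0.34 on the log2 scale (adjusted p = 6.95e-06), and heart differed from kidney by -3.45 ± 0.34 (adjusted p = 8.36e-06), whereas heart and lung did not differ beyond their spread (adjusted p = 1). The liver call was lost without liver 1 or 2 or brain endothelial 1 (adjusted p of 0.0525 to 0.0789), and when the brain vascular libraries stood for the brain the sign was opposite (0.34, adjusted p = 0.625). Kidney tubule markers summed to 37.3 to 110 CPM in kidney endothelial libraries and to at most 7.19 CPM in those of the other organs, and their part in the Egln3 level was not tested.

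Hk2, also without a read in brain endothelial cells, was highest in liver endothelial cells at 5.04 and 4.71 CPM. Lung read 1.55 and 3.78 CPM, heart 1.24 and 1.75 CPM, kidney 0 and 0.97 CPM and brain vascular cells 0.329 and 0.08 CPM. Over the same floor Hk2 was at least 32.5-fold higher in liver, 17.8-fold in lung and 9.98-fold in heart (limma adjusted p of 4.39e-05, 0.00113 and 0.0112). Liver and lung did not differ beyond their spread (adjusted p = 0.159), nor did lung and heart (0.424) or heart and kidney (0.121). The heart call was lost without heart 2 or brain endothelial 1 (adjusted p of 0.0763 and 0.0502).

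Pfkfb3 was highest in heart endothelial cells, at 394 and 377 CPM, followed by kidney (157 and 159 CPM), lung (83.1 and 219 CPM), liver (42.5 and 86.3 CPM), brain endothelial cells (19.0 and 29.8 CPM) and brain vascular cells (6.99 and 29.5 CPM). Brain endothelial cells differed from heart by -3.96, from kidney by -2.68 and from lung by -2.46 on the log2 scale (SE 0.57; limma adjusted p of 0.000156, 0.00388 and 0.00579). Neighbours in that order did not differ beyond their spread, with adjusted p of 0.157 for heart and kidney, 0.929 for kidney and lung, 0.217 for lung and liver and 0.0967 for liver and brain. The lung call was lost without lung 2 or brain endothelial 1 (adjusted p of 0.076 and 0.0507).

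Hif1a ranged from 172 and 142 CPM in heart and 131 and 133 CPM in kidney to 83.1 and 95.7 CPM in lung, 87.8 and 87.3 CPM in brain endothelial cells and 79.3 and 89.0 CPM in liver. Brain vascular cells read 62.9 and 120 CPM. Neighbouring organs did not differ beyond their spread (adjusted p of 0.604 for heart and kidney, 0.213 for kidney and lung and 0.943 for lung and liver), while heart exceeded liver by 0.89 ± 0.26 (0.0229). It was lower in brain endothelial cells than in heart (-0.83 ± 0.26, limma adjusted p = 0.0334), a call lost without either heart or either brain endothelial library (0.0625 to 0.204). Pgk1 was called lower in brain endothelial cells than in liver (-1.54 ± 0.55, adjusted p = 0.0449), and without brain endothelial 1 the adjusted p was 0.462. That call was also lost without either library of brain vascular cells, heart, kidney or liver (0.0516 to 0.138), after quantile normalization (0.0504), by edgeR (0.0721), without the filter (0.0857) and with brain vascular libraries in the place of the brain (-0.61, adjusted p = 0.571). Aldoa, Ldha, Bnip3 and Adm were not called against any organ. The share of all genes called between the other organs was 14.4% for heart and kidney, 10.7% for heart and lung, 24.9% for heart and liver, 13.0% for kidney and lung, 21.9% for kidney and liver and 18.4% for lung and liver. Against whole brain, a mixture of cells, 7 members were called (57.7% of all genes), with Epas1, Ldha and Adm higher in brain endothelial cells and Hk2, Aldoa, Pgk1 and Egln3 lower.

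The members differed in how alike their patterns were across the 18 injury-model groups, given here as Pearson r over group means of log2(CPM + 1), which share libraries, models and depth. Controls are among these groups, so r holds level differences between the controls of different models as well as changes after injury. For both Pfkfb3 and Hk2, EAE controls were above stroke controls. Among the 9 members tested in every model, Pfkfb3 and Hk2 were most alike (r = 0.88, n = 18), followed by Pgk1 and Hif1a (r = 0.87), and Adm and Bnip3 were least alike (r = -0.48). Over all genes tested in every model, the closest patterns were those of Fgfr1op for Hif1a (r = 0.96), Pcnt for Epas1 (0.96), Fam46a for Hk2 (0.97), Top1 for Pfkfb3 (0.96), Rnf183 for Pgk1 (0.96), Ranbp1 for Aldoa (0.90), Fam111a for Ldha (0.92), Mfap1b for Bnip3 (0.92) and Ppm1j for Adm (0.88). Angpt2, a ligand of the endothelial receptor Tie2, was second for Adm (r = 0.84).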

How the data were processed

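RNA of sorted endothelial cells and whole brain was sequenced, and 1 table of CPM for all 68 libraries was deposited by the authors. Per the submitters' processing notes, TopHat2 2.0.13, Subread, featureCounts and mm9 were used; their roles, the strand setting and the treatment of reads shared between genes are not given in the sources used here. All of the 1374704 nonzero CPM values (100%) came out as whole reads within 0.001, and the table has 37991 lines and 3401 repeated symbols. Replicates were checked for duplicate libraries by chi-square over their reads, and in 62 pairs the lowest chi-square per degree of freedom was 8.7. Libraries were grouped by their labels alone.

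The values being CPM, limma 3.58.1 (R 4.3.3) with an intensity trend was fitted to log2(CPM + 1), with 1 fit per injury model, 1 for all 4 models and 1 for healthy groups. Genes over 1 CPM in at least 3 libraries (2 in TBI and in healthy groups) entered, p-values were adjusted over all of them by Benjamini-Hochberg, and a call meant an adjusted p under 0.05. A count model of the design was not the main test for that reason. Whole reads were tested with edgeR 4.0.16 as an alternative, and the code was tested on simulated data. Further alternatives were a pseudocount of 0.1, no filter, quantile normalization, mitochondrial rRNA left out, a replicate block, pooled TBI controls, the brain vascular libraries standing for the brain, and each library left out. The labels do not say whether numbers shared between groups pair samples, so the block was an alternative only. Correlations between same-numbered injured and control libraries, after group means were subtracted, ran from -0.692 to 0.438. All members are named; of each pathway list, up to 3 called genes of smallest adjusted p per comparison could be named, and likeness used the 3 highest r. A pathway gene that this rule selects is counted in its list but not reported here by name. Members and lists were chosen with earlier results of these data known. Promoters and their coordinates are RefSeq on GRCm38.p6; they were matched by symbol and are not on the mm9 build of the processing notes.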

Additional observations from a re-analysis of the deposited data

Results flagged for a closer look

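Ldha in whole brain had a sample far from the others: library 1 read 164 CPM and the other 3 read 101 to 110 CPM, so that the gap to the nearest took 0.857 of the range of the 4 libraries. Chance flags about 1 in 20 groups in this way.

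The change against control differed between the 4 injury models for 3 members at each stage, by the F test of limma over all 52 libraries. At the acute stage, where 32.3% of all genes differed, F was 11.45 for Adm, 7.18 for Egln3 and 4.85 for Hif1a. At the subacute stage (7.61% of all genes) it was 7.17 for Aldoa, 7.13 for Pfkfb3 and 5.67 for Egln3. At the chronic stage (2.4%) it was 13.81 for Pfkfb3, 10.92 for Egln3 and 8.87 for Hk2. Egln3 was too low to test in the epilepsy fit and was low in stroke at every stage.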

How the results depend on the processing

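Of 255 single results for the members, 62 passed the test. Of these, 24 passed it in every alternative and left-out fit that tested the gene, 26 were lost under some setting and 36 without some library. Hk2 and Egln3 were not tested in the stroke fit when a subacute library was left out, which was not counted as a loss. Among the 24 are therefore the stroke rises of Hk2 against control and of Hk2 and Egln3 from the acute to the subacute stage. Counts of members called moved as follows. Without the filter they were 2 in subacute epilepsy, 1 from acute to subacute and 0 from subacute to chronic epilepsy, 3 in subacute and 0 in chronic EAE, 2 in subacute stroke, 1 from subacute to chronic stroke and 1 in acute TBI. Quantile normalization gave 5 from acute to subacute epilepsy and 2 in acute stroke. Leaving out mitochondrial rRNA gave 2 in acute stroke, 4 from subacute to chronic stroke and 5 for brain against kidney. By edgeR the counts were 4 from acute to subacute and 1 from subacute to chronic epilepsy, 3 in subacute EAE and 1 from subacute to chronic stroke. A pseudocount of 0.1 gave 1 from subacute to chronic stroke and 1 in acute TBI. With the replicate block the counts were 1 in acute EAE (Egln3), 3 in subacute EAE, 3 in subacute stroke and 1 in acute TBI. The calls lost there were Hif1a and Hk2 in subacute EAE, Hif1a and Pgk1 in subacute stroke and Hif1a in acute TBI. The labels do not say whether replicate numbers pair the samples. Pooled controls gave 7 in acute TBI. Leaving out each library gave 2 to 4 and 2 to 5 in acute and subacute epilepsy, 1 to 3 from acute to subacute and 0 to 2 from subacute to chronic epilepsy. In EAE it gave 0 to 2 acute, 2 to 6 subacute, 0 to 3 chronic and 0 to 1 from acute to subacute. In stroke it gave 0 to 1 acute, 0 to 6 subacute, 0 to 2 chronic, 0 to 2 from acute to subacute and 0 to 3 from subacute to chronic. In acute TBI it gave 1 to 3, and over models 2 to 4 acute, 1 to 3 subacute and 2 to 3 chronic. For brain it gave 3 to 7 against heart, 2 to 5 against kidney, 3 to 6 against lung and 2 to 5 against liver, and 3 to 6 over the 4 organs. When brain vascular libraries stood for the brain, signs were opposite for Epas1 against kidney (-1.05) and lung (-0.61) and for Egln3 against liver (0.34). The causes of these shifts were not tested, apart from Hk2 and Egln3 in subacute stroke, which fell under the filter when a library was left out. Hk2 and Egln3 were low in stroke, where control libraries held at most 5 and 18 reads. The part of depth in these low counts was not tested.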
